A study of Mus musculus with 8 samples.

Results

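The 10 genes described here encode the MCM helicase and the factors that load it onto DNA before replication: Mcm2, Mcm3, Mcm4, Mcm5, Mcm6 and Mcm7, the 6 subunits of the helicase ring, with Mcm10, Cdc6, Cdt1 and Gmnn. They were taken by name from 38293 gene identifiers in the bulk count files, and all 10 were found in the bulk and in the single-cell files. In late mitosis and G1, the origin recognition complex and CDC6 sit on origins of replication, and CDT1 brings in the MCM ring, which is closed around DNA in an inactive form. This step is called licensing. In S phase the ring is activated, with MCM10 acting at that step, and geminin, the product of Gmnn, binds CDT1 and stops origins from being licensed again in the same cycle. Genes of this group are textbook targets of the E2F factors, and their RNA is used as a sign of cells that are able to divide.

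RNA was measured in organoids from mammary tumors of MMTV-PyMT; MMTV-Cre; Ecadherin-mCFP mice, in which the mammary-active MMTV promoter drives both the PyMT oncogene and Cre. Bulk libraries came from 2 control lines (WT1 and WT3) and 3 lines in which SOX4, a transcription factor of the SOX family, had been knocked out with CRISPR/Cas9 (H7, M4 and H4, called SOX4KO). Single-cell libraries came from 1 control (GR17) and 2 SOX4KO (GR18 and GR19) samples, and the labels do not say which bulk line each one matches. All lines share the tumor alleles and were grown for 4 days in medium with FGF2. Each line is a clone, so a replicate is a line, and differences between clones other than SOX4 cannot be told apart from the knockout in any 1 line.

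Promoters of 8 of the 10 genes were in the RefSeq table used here (build GRCm38.p6), with 9 promoters in all because Mcm7 has 2. Mcm4 and Gmnn had none there. The window holds 250 bases before and 50 after the transcription start. It was searched on both strands for 4 spellings of the E2F site (TTTGGCGC, TTTCCCGC, TTTGCCGC and TTTCGCGC), for the CCAAT box, for the CHR element TTTGAA and for the SOX letters AACAAAG. At least 1 E2F spelling was found in 6 of the 9 promoters, those of Mcm3, Mcm5, Mcm6, Cdc6 and Cdt1 and the first of Mcm7. The same was true of 2.26% of all 32851 promoters in the table and of 4.11% of the 11444 promoters whose genes were tested in bulk. The Mcm2 and Mcm10 promoters and the second Mcm7 promoter held no E2F spelling. CCAAT was found in the promoters of 6 of the genes, with both promoters of Mcm7 among them, and in 37.8% of promoters of tested genes. TTTGAA was found in Mcm2 only, against 11.7% of those promoters. AACAAAG was found in Mcm10 only, against 3.68%. It is 1 spelling, and other spellings of SOX sites were not searched. A match is a run of letters and says nothing about binding in these cells.

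The promoters of 4 genes show the range of arrangements. Mcm6, whose bulk difference had the lowest adjusted p of the group, held 3 E2F matches, and Mcm7, which stood apart from the other subunits in single cells, held 2 in its first promoter. Cdc6 held 1, and Mcm10 held the AACAAAG match and no full E2F match. The Mcm10 window ends in all but the last letter of TTTGGCGC, so it cannot show whether a full site lies there. They lie at chr1:128359656-128359955 (Mcm6), chr5:138171834-138172133 (Mcm7) and chr2:5012742-5013041 (Mcm10), all on the minus strand, and at chr11:98907901-98908200 (Cdc6) on the plus strand. Each is written 5′ to 3′ on the strand of its gene, with E2F and AACAAAG matches on either strand in capitals.
Mcm6: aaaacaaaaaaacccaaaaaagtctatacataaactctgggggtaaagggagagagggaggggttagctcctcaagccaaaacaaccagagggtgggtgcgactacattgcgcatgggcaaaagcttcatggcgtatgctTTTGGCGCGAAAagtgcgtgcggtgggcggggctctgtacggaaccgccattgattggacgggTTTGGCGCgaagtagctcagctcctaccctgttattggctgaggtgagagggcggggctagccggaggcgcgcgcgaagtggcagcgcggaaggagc
Mcm7: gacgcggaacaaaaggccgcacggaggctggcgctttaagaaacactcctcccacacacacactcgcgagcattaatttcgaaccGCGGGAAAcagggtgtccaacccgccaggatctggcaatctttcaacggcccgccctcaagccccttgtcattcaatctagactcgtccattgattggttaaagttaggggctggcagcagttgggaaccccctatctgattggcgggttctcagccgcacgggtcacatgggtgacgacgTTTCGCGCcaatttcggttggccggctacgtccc
Cdc6: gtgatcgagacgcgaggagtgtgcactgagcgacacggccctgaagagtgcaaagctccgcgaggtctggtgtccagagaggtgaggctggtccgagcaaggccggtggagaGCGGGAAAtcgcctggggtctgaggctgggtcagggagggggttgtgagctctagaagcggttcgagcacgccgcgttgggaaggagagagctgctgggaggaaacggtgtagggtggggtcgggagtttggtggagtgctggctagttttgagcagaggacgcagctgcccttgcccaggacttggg
Mcm10: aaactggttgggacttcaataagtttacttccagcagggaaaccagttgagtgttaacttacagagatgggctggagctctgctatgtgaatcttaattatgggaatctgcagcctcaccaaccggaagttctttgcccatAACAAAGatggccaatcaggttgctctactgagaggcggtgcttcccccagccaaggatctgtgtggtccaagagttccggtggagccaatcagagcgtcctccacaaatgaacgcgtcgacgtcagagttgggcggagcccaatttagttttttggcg
In Mcm6 the match from base -110 to -103 before the start and a reverse-strand match from -106 to -99 overlap in 1 run of capitals, and the third lies at -47 to -40. In Mcm7 a reverse-strand match lies at -165 to -158, and the other, at 17 to 24 after the start, shares its last base with a CCAAT box. The Cdc6 match is on the reverse strand at -138 to -131, and the Mcm10 match is at -109 to -103.

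In bulk RNA, 5 of the 10 genes were lower in SOX4KO organoids by edgeR's quasi-likelihood test at an adjusted p under 0.1: Mcm2, Mcm3, Mcm5, Mcm6 and Mcm7, all subunits of the ring. None was called higher. Of the 11682 genes tested, 2.17% were called lower and 4.1% higher. For each of the 10 genes, all 3 SOX4KO lines were below both control lines, which held for 17.9% of all genes tested, while 19% had all SOX4KO lines above both control lines. The median log2 fold change of the 10 genes was -1.02, with a range of -1.32 to -0.58, beside a median of 0.01 over all genes. A log2 fold change of -0.58 or lower was found for 8.84% of all genes. DESeq2 called the same 5 genes lower, beside 2.33% of the genes it tested.

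Reads counted on genes numbered 3050323 to 4678497 per library, and levels below are CPM, read counts scaled to a common library size after TMM normalization (normalized CPM). M4 had the fewest of these reads, the highest share of reads not placed on 1 gene (83.9%, against 71.6% to 78.8% in the other lines) and the highest mitochondrial share (7.66%, against 3.97% to 5.45%). M4 was also the SOX4KO line with the highest level of 8 of the 10 genes; the part of these shares in that was not tested. Sox4 RNA itself was 295 and 374 CPM in the control lines and 199, 179 and 299 CPM in H7, M4 and H4, so its groups overlapped (log2 fold change -0.57, edgeR adjusted p = 0.277). A knockout made by small changes in the coding sequence need not lower the RNA, so this level does not check the labels. The summed epithelial markers (Epcam, Cdh1, Krt8, Krt18, Krt7, Krt19) were present in every line at 1747 to 2699 CPM, lower in all 3 SOX4KO lines, with 0 of the 6 called by edgeR, 1 lower at an unadjusted p under 0.05 and 1 called by DESeq2. The summed basal markers were 491 and 738 CPM in control and 820 to 1855 CPM in SOX4KO lines, highest in M4, and 1 of the 4 tested, the filament gene Vim, rose (log2 fold change 1.61, edgeR adjusted p = 0.0236). At an unadjusted p under 0.05, 2 of the 4 were higher, and DESeq2 called 2 higher, Vim and the transcription factor gene Trp63 (DESeq2 adjusted p = 0.0216). Fibroblast markers summed to 57.2 to 102 CPM, most of it in every line from Pdgfra (41.4 to 99.8 CPM), and Lum had 1 read, in H7. Immune markers summed to 1.79 to 14.1 CPM with Adgre1 and Cd3e at 0, and endothelial markers to 1.04 to 2.52 CPM with Cdh5, Kdr and Emcn at 0. The part of the basal shift in the results below was not tested. In bulk RNA, fewer cells that express a gene and less RNA per cell cannot be told apart.

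Mcm6 carries part of the ring that joins Mcm2 to Mcm4. Its level was 80.5 CPM in WT1 and 81.1 in WT3, against 36.5, 46.1 and 30.4 CPM in lines H7, M4 and H4. The control lines differed by less than 1 CPM, and the highest SOX4KO line was well below them. Mcm6 fell by 1.11 on the log2 scale (SE 0.20, edgeR adjusted p = 0.0325), which is 53.6% less RNA.

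Mcm2, which also binds histones at the fork and forms with Mcm5 the gate through which DNA enters the ring, was at 52.3 and 65.5 CPM in the control lines WT1 and WT3. It was at 27.1, 36.0 and 26.8 CPM in the SOX4KO lines H7, M4 and H4. H7 and H4 were alike and M4 higher, with the groups apart. Mcm2 fell by 0.98 on the log2 scale (SE 0.21, edgeR adjusted p = 0.0483). Mcm5, the other side of the gate, was at 48.7 and 59.1 CPM in control lines and at 20.4, 33.8 and 16.0 CPM in H7, M4 and H4. The spread among SOX4KO lines was wide, and H4 held less than M4 did. Mcm5 fell by 1.22 (SE 0.30, edgeR adjusted p = 0.0692).

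Mcm3 was at 48.7 and 51.0 CPM in the control lines and at 22.7, 31.0 and 18.9 CPM in H7, M4 and H4. It is the subunit through which the ring binds the origin complex during loading, and its groups were apart. Mcm3 fell by 1.05 (SE 0.23, edgeR adjusted p = 0.053). Mcm7 was at 52.8 and 74.5 CPM in WT1 and WT3 and at 21.4, 38.9 and 23.2 CPM in H7, M4 and H4. The control lines of Mcm7 were the least alike of the 6 subunits, with an SD of 15.3 CPM. Mcm7 fell by 1.21 (SE 0.28, edgeR adjusted p = 0.0633). Exons of Ap4m1, Cops6, Mir25 and Mir93 cover 12.6% of its exonic bases in the GENCODE annotation, so some of its reads cannot be assigned with certainty. The other 9 genes overlap no exon of another gene there.

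Mcm4, part of the ring that carries out unwinding, had the smallest difference of the 10 genes. Its level was 47.6 and 48.4 CPM in the control lines and 36.8, 34.6 and 25.1 CPM in H7, M4 and H4. The groups did not overlap, but the log2 fold change of -0.58 (SE 0.21) did not pass the test (edgeR adjusted p = 0.195).

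The 4 genes outside the ring had fewer reads, from 11 to 97 per library against 67 to 407 for the subunits, and none passed the test. Cdc6, the loading ATPase, was at 9.58 and 12.5 CPM in WT1 and WT3 and at 4.17, 6.84 and 2.63 CPM in H7, M4 and H4. Its log2 fold change of -1.32 (SE 0.42) was the lowest of the group, with an edgeR adjusted p of 0.142. Cdt1, which escorts the ring to the origin, was at 17.9 and 19.3 CPM in control lines and at 8.61, 15.5 and 5.27 CPM in H7, M4 and H4. M4 lay close under the control lines and H4 far below. The log2 fold change of Cdt1 was -0.96 (SE 0.40, edgeR adjusted p = 0.258).

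Gmnn, the inhibitor of Cdt1, was at 13.7 and 11.2 CPM in the control lines and at 5.22, 7.56 and 9.34 CPM in H7, M4 and H4. Here H4 was the highest SOX4KO line and H7 the lowest, unlike the loading factors. Its log2 fold change was -0.75 (SE 0.33, edgeR adjusted p = 0.286). Mcm10, needed when the loaded ring is fired, was at 9.58 and 13.1 CPM in control lines and at 4.96, 8.28 and 4.79 CPM in H7, M4 and H4. M4 was near WT1, and the log2 fold change of -0.95 (SE 0.36) did not pass the test (edgeR adjusted p = 0.214).

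**Figure D1:**
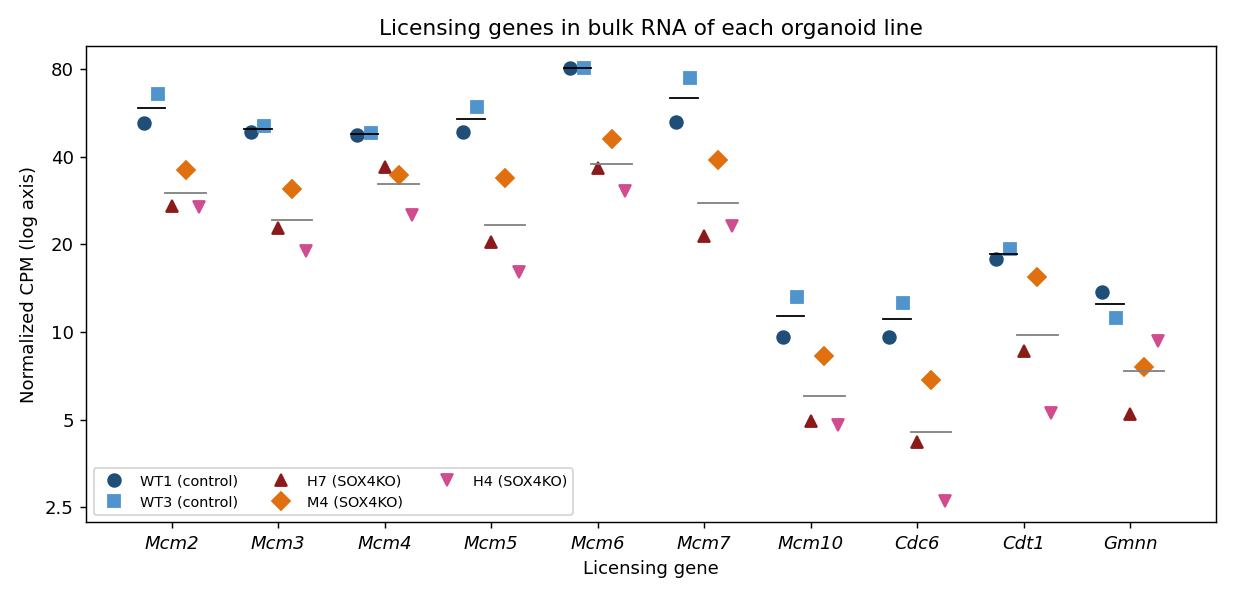
Normalized CPM (log axis) of each of the 10 licensing genes in each bulk line, with blue symbols for the 2 control lines, red to pink symbols for the 3 SOX4KO lines and horizontal lines for group means. Every SOX4KO symbol lies below both control symbols of its gene, and M4 (diamonds) is the highest SOX4KO line for 8 of the 10 genes.

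The lines differed in how far the whole group had moved. The median over the 10 genes of the log2 difference from the control mean was -1.16 for line H7, -0.68 for M4 and -1.40 for H4. The control lines lay at -0.10 and 0.10. H4 was the lowest SOX4KO line for 8 genes, and M4 the lowest for 0. Among the SOX4KO lines, the order of the medians was the reverse of that of Sox4 RNA (299 CPM in H4, 199 in H7 and 179 in M4). A link between the 2 orders was not tested. Leaving out M4 raised the number of genes called lower from 5 to 8, adding Cdc6, Cdt1 and Mcm10, beside 3.29% of all genes called lower in that fit. Without H7, 3 genes were called (Mcm2, Mcm3 and Mcm6, beside 2.07% of all genes), and without H4 all of the 5 but Mcm7 (2.6%). With WT1 or WT3 left out, 0 of the 10 genes were called by edgeR, and 0.308% and 0.218% of all genes were called lower. The median log2 fold change of the 10 genes was then -1.12 without WT1 and -0.91 without WT3.

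The balance of Cdt1 and its inhibitor varied among the SOX4KO lines. The log2 ratio of Cdt1 to Gmnn CPM was 0.37 and 0.77 in WT1 and WT3, and 0.67, 0.99 and -0.77 in H7, M4 and H4. H4 was the one line with more Gmnn than Cdt1 on this scale, which takes no account of transcript length. The SOX4KO mean was 0.27 lower than the control mean, with an exact permutation p of 1 (two-sided, 10 splits, smallest possible p of 0.2), and without H4 it was 0.26 higher.

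Levels per kilobase of transcript (RPKM) allowed the genes to be compared with each other. With all annotated exonic bases as the length, the control means ran from 8.47 ± 1.34 (SD, n = 2) for Mcm2 through 13.3 ± 0.44 for Mcm3, 13.4 ± 0.15 for Mcm4, 13.5 ± 1.86 for Mcm5 and 14.4 ± 3.46 for Mcm7 to 17.3 ± 0.08 for Mcm6. Mcm3, Mcm4, Mcm5 and Mcm7 did not differ from each other beyond their spread. Mcm2 was the lowest subunit in all 5 lines on this scale, but its annotated exons span 6956 bases and its principal transcript 3371. With the principal transcript as the length, Mcm2 was at 17.5 ± 2.77 RPKM in control lines, next below Mcm7 at 21.5 ± 5.17 and Mcm6 at 27.8 ± 0.13. The place of Mcm2 therefore rests on the length used, and that of Mcm6 as the highest in control lines does not.

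With all exonic bases as the length, the highest subunit was 1.82 to 2.63 times the lowest within a line. On the same scale their summed RPKM was 75.1 and 85.5 in WT1 and WT3 and 38.0, 50.2 and 31.7 in H7, M4 and H4. Outside the ring the control means were 1.48 ± 0.33 RPKM for Mcm10, 2.12 ± 0.40 for Cdc6, 5.92 ± 0.33 for Cdt1 and 8.49 ± 1.24 for Gmnn. Mcm10 stood at 9.94% to 12.9% of the mean subunit in every line, with no separation of the genotypes.

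The genes that act just before and after licensing were compared through 6 lists with 85 genes, all of them tested. Of these, 69 had a log2 fold change below 0, beside 49.1% of all genes. Their median was -0.39, and edgeR called 5 lower and 0 higher. Members of the origin recognition complex and relatives of the ring (11 genes, Orc1 to Orc6, Mcm8 and Mcm9 among them) had a median of -0.04, with 0 called by edgeR and 0 at an unadjusted p under 0.05, and DESeq2 called 0. All 17 origin firing genes were below 0, with a median of -0.49. Of these, 1 fell, Wdhd1, which tethers polymerase alpha to the fork (log2 fold change -1.43, SE 0.36, edgeR adjusted p = 0.0754). DESeq2 did not call Wdhd1 (adjusted p = 0.133), and the 1 firing gene that it called was the cyclin gene Ccna2 (adjusted p = 0.0486).

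Among 26 replisome genes the median was -0.41, and 24 were below 0. Of the 26, 10 were lower at an unadjusted p under 0.05, and edgeR called 2 lower. Chaf1b, a subunit of the chromatin assembly factor that follows the fork, was at 26.7 and 30.5 CPM in control lines and at 6.52, 12.6 and 7.66 CPM in H7, M4 and H4. Its log2 fold change of -1.70 (SE 0.30, edgeR adjusted p = 0.0298) was lower than that of any of the 10 licensing genes. Clspn, a mediator of the replication checkpoint, fell by 1.24 (SE 0.30, edgeR adjusted p = 0.0681). DESeq2 called 1 of the 26 genes, Chaf1b, and not Clspn (adjusted p = 0.102). Of 7 genes of nucleotide supply, with a median of -0.73, Rrm1, the large subunit of ribonucleotide reductase, fell by 0.73 (SE 0.18, edgeR adjusted p = 0.0761).

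Of 11 genes that control the breakdown of licensing factors, with a median of -0.18, 1 fell. This was Dtl, the adaptor that directs CDT1 to destruction in S phase, at 22.8 and 23.5 CPM in control lines and 8.09, 9.00 and 12.2 CPM in H7, M4 and H4 (log2 fold change -1.23, SE 0.26, edgeR adjusted p = 0.0478). The 13 genes of the E2F factors, their partners and the pocket proteins had a median of 0.14, with 6 below 0. edgeR called 0 of them. At an unadjusted p under 0.05, 4 genes passed (3 lower, 1 higher), and DESeq2 called 1 lower. With every gene of at least 1 count in any line tested, 20 of the 85 genes were called lower in place of 5, beside 3.78% of all genes, and 7 of the 10 licensing genes (adding Cdc6 and Cdt1). The 16 genes of mitosis, which act after replication, had a median of -0.87 with 8 called lower, among them Ccnb1, the cyclin of mitotic entry (-1.48, edgeR adjusted p = 0.0275), and the kinases Plk1 (-1.37, 0.0418) and Aurka (-1.31, 0.0418).

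**Figure D2:**
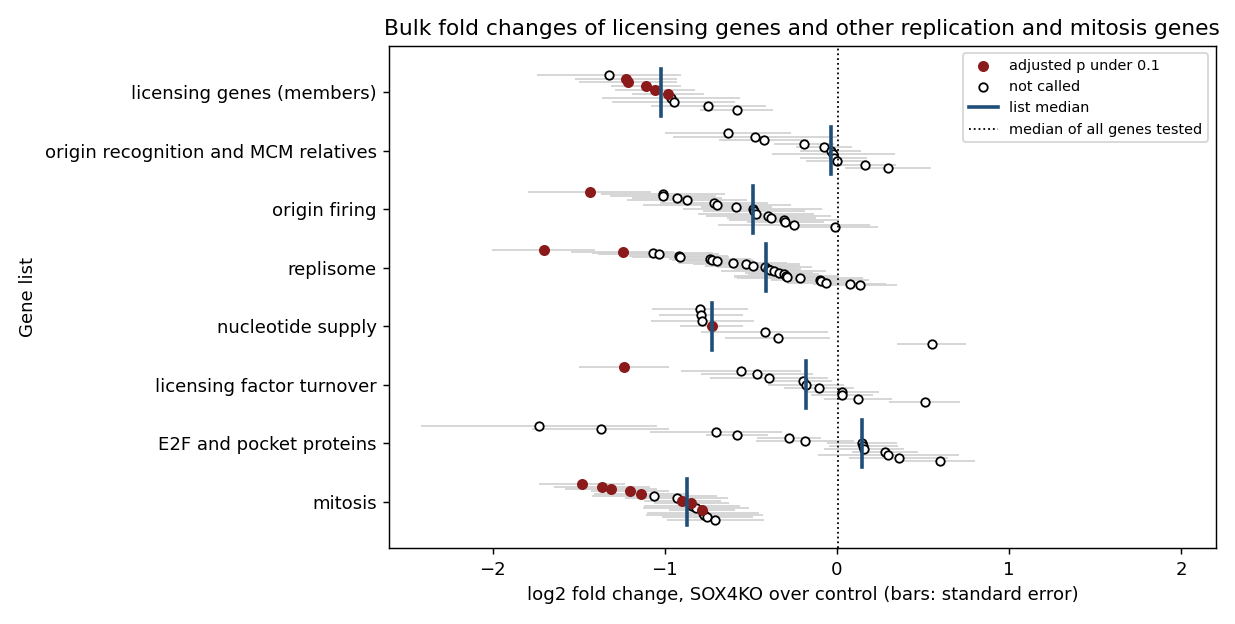
log2 fold change (SOX4KO over control, bulk) of each gene of the licensing group and of 7 other lists, with bars for the standard error, filled red points for genes with an edgeR adjusted p under 0.1 and a blue line for the list median. The licensing genes (median -1.02) and the mitosis genes (median -0.87) lie left of the dotted line for all genes (0.01), while the origin recognition list (median -0.04) lies close to it.

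In the single-cell plates, 369, 369 and 362 wells with at least 1000 UMIs were kept in GR17, GR18 and GR19. Median depths were 19845, 20525 and 21877 UMIs per cell. With 1 control library there is no test of the genotype, and the 95% Poisson intervals below cover counting error only. The binomial intervals for shares of cells cover the sampling of cells only, and neither kind covers variation between lines. ERCC spike-in UMIs per 1000 cell UMIs were 8.0, 16.1 and 7.77, so GR18 stood apart. Scaling to the spike-ins moved the median of all genes in GR18 to -0.97 on the log2 scale and left GR19 at -0.01. Fibroblast, endothelial and immune markers summed to at most 5.74 CPM in any library. Luminal markers summed to 982, 1149 and 1515 CPM in GR17, GR18 and GR19, higher in both SOX4KO libraries. Basal markers summed to 4222, 3986 and 2292 CPM, lower in both SOX4KO libraries, whereas in bulk their sum was higher in all 3 SOX4KO lines. Of the 4 basal markers with at least 20 CPM on average, only 1 was lower in both SOX4KO libraries. The median log2 difference of these 4 was 0.09 in GR18 and -0.35 in GR19. Luminal markers in bulk summed to 1533 and 1484 CPM in WT1 and WT3 and to 1057, 1148 and 1447 CPM in H7, M4 and H4. The part of these marker levels in the values below was not tested. The wells left out held 4341 to 5150 UMIs per library, of which 1, 2 and 1 came from the 6 subunits.

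All 10 genes had a lower level in CPM in both SOX4KO libraries than in the control library, which held for 42.5% of 6303 genes with at least 20 CPM on average. For Mcm10 in GR19 the level was the same to 3 digits. The median log2 difference of the 10 genes was -0.42 in GR18 and -0.39 in GR19, against 0.01 and -0.05 over all genes. The summed subunits were at 1087 CPM (95% interval 1064 to 1111) in GR17, 785 (765 to 804) in GR18 and 777 (758 to 796) in GR19. The SOX4KO libraries overlapped each other and were both below the control library.

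Mcm7 had the largest difference. It was at 272 CPM (95% interval 260 to 284) in the control library, 155 (147 to 164) in GR18 and 159 (150 to 168) in GR19. It was 42.8% and 41.6% lower in the SOX4KO libraries and was the only one of the 10 genes past 1.5-fold in both, beside 2.65% of all genes past that fold in the lower direction and 5.39% in the higher. Mcm2 was at 117 CPM in GR17, 87.1 in GR18 and 74.6 in GR19, and passed 1.5-fold in GR19 alone. Mcm3 was at 127, 87.5 and 88.5 CPM. Both SOX4KO libraries lay below the interval of the control library for each of these subunits.

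Mcm4 was at 142, 105 and 114 CPM in GR17, GR18 and GR19. Mcm5 was at 231, 191 and 180 CPM, and Mcm6 at 198, 158 and 161 CPM. These 3 subunits were 17.2% to 26.2% lower, with intervals below that of the control library in both. Cdt1 was at 82.3, 67.5 and 59.1 CPM and Gmnn at 69.5, 51.6 and 51.6 CPM, again with the intervals apart. Cdc6 was at 32.5, 26.6 and 29.6 CPM and its intervals overlapped the control in both libraries. Mcm10 was at 31.0, 22.8 and 31.0 CPM, with the interval below control in GR18 only.

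The share of cells in which a gene was found was compared after every cell was thinned to 10000 UMIs, which left 334, 330 and 342 cells. Mcm7 was found in 83.8% of control cells (95% interval 79.4% to 87.6%), 62.4% of GR18 cells (57.0% to 67.7%) and 61.7% of GR19 cells (56.3% to 66.9%). Mcm2 was found in 62.3%, 46.1% and 39.5% of cells. Cdc6 was found in 23.4%, 18.2% and 18.7%, with overlapping intervals. The median over the 10 genes of the difference in share was -13.5 percentage points in GR18 and -16.0 in GR19, and without thinning it was -13.3 and -12.6. No cell type that should lack these genes was present, so no share could be set against a cell background.

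Counted per cell at that depth, the 6 subunits gave a median of 10 UMIs in control cells and 5 in cells of either SOX4KO library. The upper ends were nearer to each other: the third quartile was 15, 12 and 11 UMIs and the highest cell held 30, 30 and 27. Cells with no subunit UMI made up 3.59% (95% interval 1.87% to 6.19%) of control cells, 10.9% (7.76% to 14.8%) of GR18 cells and 13.7% (10.3% to 17.9%) of GR19 cells. All 6 subunits were found in 29.9% of control cells and in 17.3% and 14.9% of cells of GR18 and GR19.

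**Figure D3:**
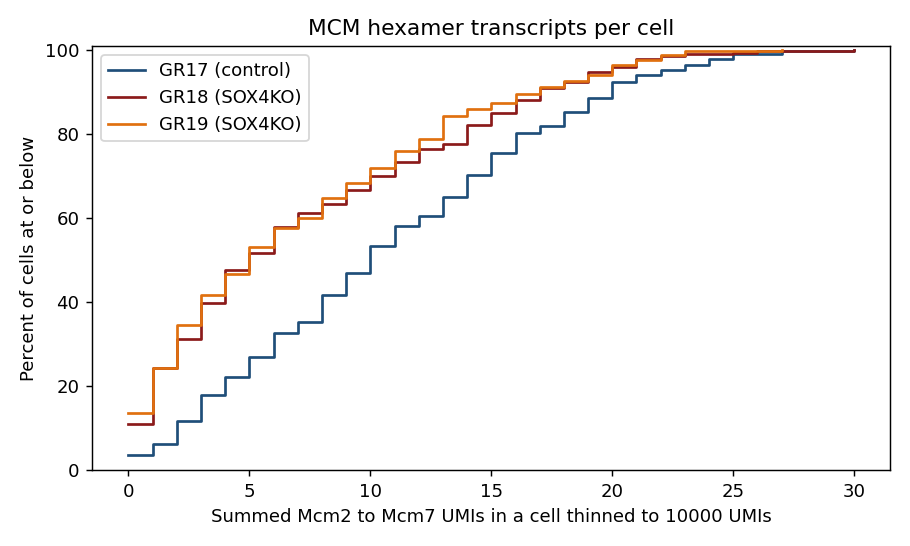
Percent of cells at or below a given number of summed Mcm2 to Mcm7 UMIs, in cells thinned to 10000 UMIs, for the control library (blue) and both SOX4KO libraries (red and orange). The SOX4KO curves run together and above the control curve, starting at 10.9% and 13.7% of cells with 0 UMIs against 3.59%, and all 3 end at 27 to 30 UMIs.

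Cells were then placed in phase classes by scoring 36 S and 52 G2M genes, with the 6 licensing genes of the standard S list taken out. The classes are ranges of a score, not cell types, and 88 of 1100 cells lay within 0.05 of the border of the G1 class. Cells near the border between S and G2M were not counted. The S class held 42.5% (95% interval 37.4% to 47.8%) of control cells, 26.3% (21.9% to 31.1%) of GR18 cells and 32.04% (27.3% to 37.1%) of GR19 cells. The class with neither score, called G1, held 21.1%, 44.7% and 41.4%. After thinning to 10000 UMIs, the S and G2M classes together held 78.7%, 56.4% and 59.4% of cells, beside 78.9%, 55.3% and 58.6% without it. Mki67, which encodes Ki67, was at 232, 222 and 267 CPM in GR17, GR18 and GR19. In bulk it was lower in SOX4KO lines (log2 fold change -0.85, edgeR adjusted p = 0.0822). From its own phase scoring of the single cells, the study reported a lower share of cycling cells in SOX4KO organoids. It also reported lower RNA of cell cycle genes by qRT-PCR. For organoids in vitro, the study reported no significant change in phase by propidium iodide or in Ki67-positive cells. Median depth was lower in the G1 class (15051, 16953 and 18569 UMIs in GR17, GR18 and GR19) than in the S class (22177, 23971 and 26284); its part in the class values was not tested.

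All 10 genes were highest in the S class in all 3 libraries. That class was cut on the expression of other S genes, so a peak there is not independent of the choice of cells. The summed subunits were 3.17 times as high in S as in G1 in the control library, and 5.44 and 6.01 times in GR18 and GR19. Cdc6 and Mcm10 were the most confined to S: in the G1 class, Cdc6 had 7, 9 and 7 UMIs and Mcm10 had 3, 5 and 2, against 140 to 225 UMIs in the S class. Gmnn, whose protein acts from S phase to mitosis, had the smallest drop from S to G2M, with ratios of 1.40, 1.46 and 1.5. For Cdc6 that ratio was 8.0, 7.75 and 12.1.

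Within the S class, which was chosen for high scores of other S genes, the genotypes were close. That choice could itself bring the levels nearer to each other, and its part was not tested. The summed subunits were at 1525 CPM (95% interval 1485 to 1566) in control cells, 1544 (1496 to 1593) in GR18 and 1381 (1340 to 1424) in GR19, so GR18 overlapped the control and GR19 was lower by 0.14 on the log2 scale. Mcm7 was the one gene lower in both libraries with intervals apart, at 349 CPM (330 to 369) in GR17, 291 (270 to 312) in GR18 and 261 (243 to 280) in GR19. Mcm2 was at 169, 170 and 138 CPM and Mcm3 at 187, 195 and 161 CPM, with the interval of GR19 alone below that of the control for Mcm2. The median log2 difference of the 10 genes in the S class was 0.06 in GR18 and -0.04 in GR19. Mcm10 was higher in GR19 S cells, at 69.2 CPM (60.2 to 79.2) against 50.1 (43.0 to 58.0) in control S cells.

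Within the G1 class, the difference was larger. The summed subunits were at 481 CPM (95% interval 443 to 522) in control cells, 284 (265 to 304) in GR18 and 230 (213 to 248) in GR19. Mcm7 was at 142 CPM (121 to 165), 58.4 (50.05 to 67.8) and 53.6 (45.5 to 62.7), which is a log2 difference of -1.26 and -1.39. Mcm2 was at 68.3, 37.8 and 23.0 CPM. Gmnn in G1 cells was at 19.2, 17.2 and 15.1 CPM, lower in both SOX4KO libraries with overlapping intervals. These values rest on 23, 51 and 44 UMIs. In the G2M class the summed subunits were at 807, 606 and 662 CPM, and Mcm5 was at 166, 166 and 170 CPM with overlapping intervals. The classes were cut on expression scores, and whether cells of 1 class sit at the same point of the cycle in each library was not tested.

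**Figure D4:**
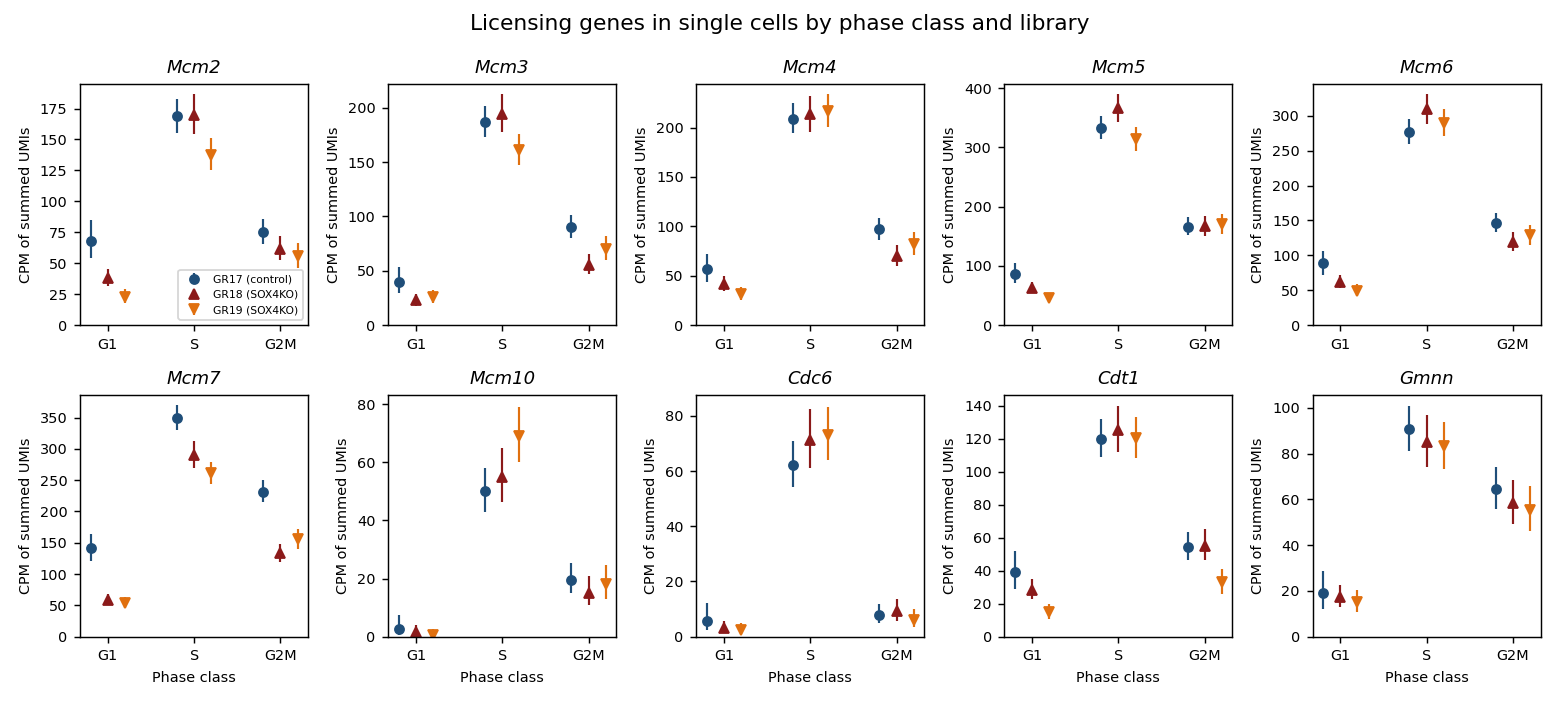
CPM of summed UMIs of each licensing gene by phase class in the control library GR17 (blue circles) and the SOX4KO libraries GR18 (red) and GR19 (orange), with bars for exact 95% Poisson intervals and a separate linear axis from 0 for each gene. All genes peak in the S class, where Mcm7 alone is lower in both SOX4KO libraries with bars apart. The subunits sit lower in the G1 class of both. There, bars overlap the control for Mcm4 and Mcm5 in GR18 and for Mcm3 in GR19.

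Across cells of 1 library at a depth of 10000 UMIs, the genes whose levels ran closest to the summed subunits were Pcna, the sliding clamp of replication (mean Pearson r over the 3 libraries 0.735), and Rrm2, the small subunit of ribonucleotide reductase (0.615). They were followed by Hnrnpab, an RNA-binding protein (0.545), Tuba1b, a tubulin (0.540), and Uhrf1, which maintains DNA methylation (0.532). These values are over the cells of a library, which share its depth and chemistry, and the order of genes also reflects how many UMIs each gene has. Among the other licensing genes, Cdc6 was at 0.412 (rank 31 of 6297 genes), Mcm10 at 0.381 (rank 43), Cdt1 at 0.377 (rank 46) and Gmnn at 0.274 (rank 152). Sox4 was at -0.094.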

How the data were processed

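RNA was sequenced in bulk from 2 control and 3 SOX4KO organoid lines and in single cells from 1 control and 2 SOX4KO libraries. For both, the authors deposited raw counts without normalization: reads on each gene from htseq-count, and UMI counts on each gene for every well. The submitters' processing notes name STAR 2.4.2a, HTSeq, Seurat and the mouse build NCBIM37. Whether reads were counted by strand is not given in the sources used here. Summary lines for reads not placed on 1 gene (71.6% to 83.9% of reads) were kept out of library sizes. No column of another sample was found. Gene lengths and overlaps came from GENCODE M21 (GRCm38), with which 36345 of 38293 identifiers had a symbol, and promoters from a RefSeq table of GRCm38.p6. No coordinates were moved between builds.

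The bulk fit used edgeR 4.0.16 under R 4.3.3: low genes were dropped by filterByExpr, libraries scaled by TMM, and a quasi-likelihood model (glmQLFit, then glmQLFTest) tested on 11682 genes. Adjusted p-values are Benjamini-Hochberg values over all of these, and a value under 0.1 was a call. Standard errors were derived from each fold change with its F value. DESeq2 1.42.0 was an alternative. Replicate lines differed beyond sampling noise, by 9.22 to 24.8 times the chi-square that counting error alone gives, so each counted as 1 sample. Log2 CPM of the Cdt1 to Gmnn ratio used a prior count of 2. The fit was tested on simulated counts for 3 lines against 2, in which 200 genes of 11682 were set to a 3-fold change: edgeR found 177 of them with 21 false calls, DESeq2 167 with 19. The licensing genes differed by 1.50-fold to 2.50-fold, and the share found at such folds was not simulated.

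Wells with at least 1000 UMIs were kept, and UMIs were summed per library. Differences are of log2(CPM + 1), and genes past a fold of 1.5 in both SOX4KO libraries were counted among those whose CPM averaged 20 or more. Phases were scored with Seurat 5.3.0. No doublet caller was run, and 8, 20 and 11 wells held over 2 times the median UMIs of their library. Intervals are exact (Poisson or binomial, 95%).

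Text was given to all 10 genes, to Sox4, to the genes edgeR called in each list (at most 3 rises and 3 falls), to the 5 genes with the highest r and to the epithelial markers. The genes of interest and the lists were chosen with earlier results of these data known. Alternatives covered DESeq2, its size factors, filters on low counts, thresholds, each line or library left out, UMI and CPM minimums, pseudocounts, thinning and the phase lists. Scaling to spike-ins, leaving out wells over 2 times the median, totals without mitochondrial genes and Rn45s, and transcript length were chosen after seeing the data.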

Additional observations from a re-analysis of the deposited data

Results flagged for a closer look

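Some single-cell differences had opposite signs in different phase classes, with both SOX4KO libraries above the control library in 1 class and both below it in another. The difference between classes was not tested, and several of the values lie within counting error. Between the S and G1 classes this held for Mcm4 (mean log2 difference 0.04 in S and -0.64 in G1, 0.68 apart), Mcm6 (0.11 and -0.67, 0.78 apart), Mcm10 (0.30 and -0.72, 1.01 apart), Cdc6 (0.21 and -0.88, 1.09 apart) and Cdt1 (0.03 and -0.90, 0.93 apart). Between the S and G2M classes it held for Mcm4 (0.39 apart), Mcm6 (0.35 apart) and Mcm10 (0.52 apart). Mcm5 was at 0.02 in G2M and -0.68 in G1, 0.70 apart. With the replication genes also taken out of the phase lists, Mcm4 and Cdt1 in S were at -0.0066 and -0.0022 and Mcm5 in G2M was at -0.0097, so their signs were no longer opposite, while Mcm6, Mcm10 and Cdc6 in S were at 0.06, 0.23 and 0.08. The G1 values of Cdc6 and Mcm10 rest on 2 to 9 UMIs per library.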

How the results depend on the processing

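No paired analysis was possible because each line is a separate clone and the labels carry no replicate numbers shared between genotypes. The number of licensing genes called in bulk ran from 0 to 8 with 1 line left out (0 without WT1 or WT3, 3 without H7, 8 without M4), and was 2 at an adjusted p under 0.05. DESeq2, its size factors and a filter of 1 CPM in at least 2 lines each gave 5. Of all genes tested, those fits called 2.33%, 2.18% and 2.08% lower. Testing all genes with a count gave 7, beside 3.78% of all genes. Without H7, M4 and H4, 2.07%, 3.29% and 2.6% of all genes were called lower. The share of all genes at an adjusted p under 0.05 was not counted. The number of genes called lower among the other replication lists ran from 0 to 18 with 1 line left out (2 without H7, 18 without M4, where 1 more was called higher), and was 20 with all genes with a count tested. Where a control line was left out, 1 control line remained and was assumed to vary like the SOX4KO lines. The log2 difference of the Cdt1 to Gmnn ratio ran from -0.62 to 0.26 with 1 line left out, and was 0.26 without H4. The summed control RPKM of the 6 subunits was 80.3 with all exonic bases and 112 with principal transcripts.

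In single cells, the median log2 difference of the 10 genes, averaged over both SOX4KO libraries, was -0.41. It was -0.35 with a pseudocount of 10 CPM, -0.49 as a mean over cells, -0.43 without wells over 2 times the median, -0.37 without mitochondrial genes and Rn45s in the totals, and -0.87 with spike-in scaling, which moved all genes in GR18 by -0.97. Under spike-in scaling, with a minimum of 500 UMIs, without wells over 2 times the median and without mitochondrial genes and Rn45s, Mcm10 was no longer lower in both libraries, and the other 9 genes were. The number of genes past 1.5-fold was 1 to 2 with a SOX4KO library left out. Within the G2M class the median difference was -0.28, and -0.30 with the replication genes taken out of the phase lists. The median difference in share of cells was -14.8 percentage points, -11.8 at 5000 UMIs and -12.9 without thinning. The causes of these shifts were not tested. Cdc6, Mcm10 and Gmnn had 11 to 66 reads per bulk library.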
